A study of Mus musculus with 2 samples.

Results

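Small RNA genes are the short genes that an annotation marks as encoding a small nucleolar RNA (snoRNA), a microRNA (miRNA) or a small nuclear RNA (snRNA). They were taken as every gene of the deposited table whose class names 1 of these kinds and whose coordinates span fewer than 400 bases. This gave 284 of the table's 12557 genes, of which 158 were snoRNA genes, 105 miRNA genes and 21 snRNA genes. By name, 81 of the snoRNA genes belong to the box C/D kind, 57 to the box H/ACA kind and 2 to the small Cajal body kind, and 18 carry other names. Lengths ran from 52 bases in AL646020.1 to 271 bases in SCARNA6, so no gene lay near the limit, and the median was 86.5.

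The RNA came from the embryonic mouse sinoatrial node, the pacemaker region of the heart, and was compared between 2 genotypes on the ICR strain. The Isl1 mutant embryos were Hcn4-CreERT2; Isl1f/f; Rosa-tdTomato, and the control embryos were Hcn4-CreERT2; Isl1+/+; Rosa-tdTomato, so both groups carried the tamoxifen-inducible Cre under Hcn4, the reporter and the tamoxifen. Tamoxifen was given at embryonic day 10.5 and nodes were collected 36 hours afterwards, at day 12 to 12.5. Nodes of 1 genotype were pooled, depleted of endothelial cells with CD31 beads and sorted for tdTomato, and the labels give neither the number of embryos in a pool nor the part of Isl1 that is floxed. Deletion and reporter both rest on Hcn4-CreERT2, so only cells in which that driver was active at the time of tamoxifen were sought. Each genotype had 1 library, made from oligo(dT)-captured RNA with a cDNA kit and read in pairs of 90 bp. A single library for each genotype leaves no replicate error and no test, so values are set side by side and differences are described by size.

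Box C/D snoRNAs guide 2′-O-methylation and box H/ACA snoRNAs guide pseudouridylation, mostly of ribosomal RNA, and in mammals most of them are cut out of the introns of longer host genes. miRNAs are cut from hairpins within long primary transcripts, and the mature form pairs with messenger RNAs through its seed. The spliceosomal snRNAs U1, U2, U4 and U6 act in splicing, and U7 acts in the 3′ end formation of histone messages. The mature forms carry no poly(A) tail, whereas most host and primary transcripts do. Which molecule gave the reads over a small RNA gene was not tested.

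The sequences below show why short genes of this kind need care. The first set holds the 5 genes counted below as at least 2-fold higher in the mutant, all classed as miRNA. With them stands AC151602.1, which lies in an exon of Ftl1, the gene of the ferritin light chain. All 6 read as copies of 1 stretch of ferritin light chain sequence, and 3 of the other 5 carry names of the miR-692 family. Capitals mark the bases that differ from AC151602.1, and sequences are in the gene's own direction, from GENCODE M21 except Mir692-2a, which is from RefSeq (GRCm38.p6).
AC151602.1: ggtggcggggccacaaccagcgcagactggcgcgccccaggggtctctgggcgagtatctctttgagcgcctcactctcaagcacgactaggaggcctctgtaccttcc
Mir692-2a: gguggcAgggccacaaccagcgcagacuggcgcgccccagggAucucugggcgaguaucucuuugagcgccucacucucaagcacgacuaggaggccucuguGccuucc
AL645948.1: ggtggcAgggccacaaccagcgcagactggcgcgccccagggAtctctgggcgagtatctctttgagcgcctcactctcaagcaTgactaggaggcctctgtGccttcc
Mir692-2b: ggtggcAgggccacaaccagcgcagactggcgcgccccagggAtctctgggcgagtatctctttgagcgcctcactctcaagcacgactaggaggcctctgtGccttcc
Mir692-1: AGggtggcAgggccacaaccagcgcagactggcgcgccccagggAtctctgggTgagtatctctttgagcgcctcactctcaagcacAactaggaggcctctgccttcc
AC154650.1: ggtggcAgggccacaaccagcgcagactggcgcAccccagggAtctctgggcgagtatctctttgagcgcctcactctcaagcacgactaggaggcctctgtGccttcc
Counting from 1 at the 5′ end of AC151602.1, all 5 other copies shared G7A and G43A, and 4 of them shared A103G. Mir692-2a and Mir692-2b had these 3 differences and no other, which is 97.2% identity. AL645948.1 added C85T and AC154650.1 added G34A, and Mir692-1 differed by 4 substitutions and by 4 gapped bases near its ends.

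The second set holds box C/D snoRNA genes of the hosts described below, with a C box (TGATGA within the first 20 bases) and a D box (CTGA within the last 20 bases) in capitals where a search found them.
SNORD44: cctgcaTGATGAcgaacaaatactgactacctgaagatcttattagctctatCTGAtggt
SNORD78: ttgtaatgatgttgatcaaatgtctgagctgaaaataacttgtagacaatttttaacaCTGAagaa
Snord4a: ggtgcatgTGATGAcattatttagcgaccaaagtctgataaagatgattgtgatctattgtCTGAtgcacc
Snord96a: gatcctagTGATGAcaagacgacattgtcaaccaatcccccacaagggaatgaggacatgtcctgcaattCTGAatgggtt
Snord34: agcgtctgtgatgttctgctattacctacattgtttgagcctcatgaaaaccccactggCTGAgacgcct
Both boxes were found in 45 of 73 genes named as box C/D for which GENCODE M21 gave a sequence, in 0 of 57 named as box H/ACA and in 0 of 95 miRNA genes, and in 0 of each kind on the opposite strand. ACA within the last 8 bases, the tail that names the H/ACA kind, was found in 50 of 57 H/ACA genes, 7 of 73 C/D genes and 8 of 95 miRNA genes. In SNORD78 and Snord34 the exact C box letters did not occur in the window.

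The third set gives the mature products of miRNA genes named below, from RefSeq (GRCm38.p6), with the seed (bases 2 to 8) in capitals.
mmu-miR-692: aUCUCUUUgagcgccucacuc
mmu-miR-675-5p: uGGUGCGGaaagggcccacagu
mmu-miR-675-3p: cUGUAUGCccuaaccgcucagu
mmu-miR-22-5p: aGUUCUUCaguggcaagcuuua
mmu-miR-22-3p: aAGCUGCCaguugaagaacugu
mmu-miR-208b-3p: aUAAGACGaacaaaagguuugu
mmu-miR-21a-5p: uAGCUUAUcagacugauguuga
No 2 of these 7 seeds were alike. RefSeq entries matched 39 of the 105 miRNA genes by symbol or synonym. Of the 105, 48 carry miRNA names and others have clone-based ones, such as AL669855.1, the small RNA gene with the highest level, whose sequence lies within Actg1, the cytoplasmic gamma-actin gene.
AL669855.1: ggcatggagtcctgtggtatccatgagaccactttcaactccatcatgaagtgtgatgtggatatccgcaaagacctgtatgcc

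Values are RPKM, read numbers scaled by length and library total, and whole reads were recovered from their steps. The length is that of the whole gene for small RNA genes and that of the constitutive exons used for longer genes, so a longer gene's level describes those exons, and its recovered reads are the smallest whole number that fits. The libraries rested on 119018888 reads in the mutant and 110117186 in the control, and small RNA genes took 67661 of them in the mutant library and 64269 in the control library. A small RNA gene had a median of 24 reads in the mutant library and 32.5 in the control library, with 211 of 284 under 50 reads in the mutant and 191 in the control. The 4 highest genes held 62.5% of these reads in the mutant library and 66.2% in the control library. In 148 genes the whole gene was shorter than a 90-base read. Every gene of the table reaches 1 RPKM in at least 1 library. Both libraries reached it for 204 small RNA genes, the mutant library alone for 10 and the control library alone for 70, and those 80 entered through their higher library and so had to differ. The range given after a fold is its exact 95% interval and covers counting error alone, because PCR copies are not independent molecules.

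Isl1, the LIM-homeodomain gene targeted in the mutant, stood at 1.52 RPKM in the mutant library and 7.65 RPKM in the control library, which is 5.02-fold lower in the mutant (4.53 to 5.56). Markers of the sorted cells and of other cells also differed. The 4 pacemaker markers, Isl1, Hcn4, Tbx3 and Shox2, summed to 14.2 RPKM in the mutant library and 34.4 in the control library, and the 5 heart muscle markers to 16599 RPKM in the mutant library and 11722 RPKM in the control library. All 6 red cell markers, 5 white cell markers, 5 fibroblast markers and 3 measured endothelial markers were lower in the mutant library, with summed levels of 46.8, 6.54, 175 and 8.52 RPKM there against 287, 38.0, 384 and 16.1 RPKM in the control library. The 2 liver markers summed to 3.25 RPKM in the mutant library and 14.1 RPKM in the control library, while the 2 measured of 4 neural markers went opposite ways, Nefl with 7.65 RPKM in the mutant library and 3.36 RPKM in the control library and Tubb3 with 0.610 RPKM in the mutant library and 2.89 RPKM in the control library. None of the measured markers was at 0 in either library, and the other listed ones were not analysed here. Hcn4, Tubb3, the white cell markers Ptprc and Cd68 and the liver marker Alb reached 1 RPKM in the control library alone. The table's filter thus fixed their direction. In bulk RNA, fewer cells of a type and less RNA per cell cannot be told apart, and the part of these cells in the results on small RNA genes was not tested.

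Most small RNA genes stood lower in the mutant than in the control, by small amounts. Of the 284, 210 were lower and 74 higher, so 73.9% were lower, beside 67.2% of all genes of the table. The 284 include 70 that entered through the control library and 10 through the mutant library, whose direction the table's own filter fixed. Among the 204 that reached 1 RPKM in both libraries, 140 (68.6%) were lower, with a median log2 ratio of -0.25, beside 65.1% and a median of -0.13 for the 10450 genes of the table that did so. Without that condition, the median log2 ratio, taken as log2 of (mutant RPKM + 1) over (control RPKM + 1), was -0.42 for small RNA genes and -0.18 for all genes. It was -0.50 for snoRNA genes, with 124 of 158 lower, -0.21 for miRNA genes, with 69 of 105 lower, and -0.45 for snRNA genes, with 17 of 21 lower. At 1 RPKM or more in both libraries it was -0.37 for snoRNA genes, with 82 of 113 lower. There it was -0.17 for miRNA genes, with 49 of 79 lower, and -0.27 for snRNA genes, with 9 of 12 lower. Among all 158 snoRNA genes the median was -0.60 for the C/D kind and -0.45 for the H/ACA kind.

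**Figure D1:**
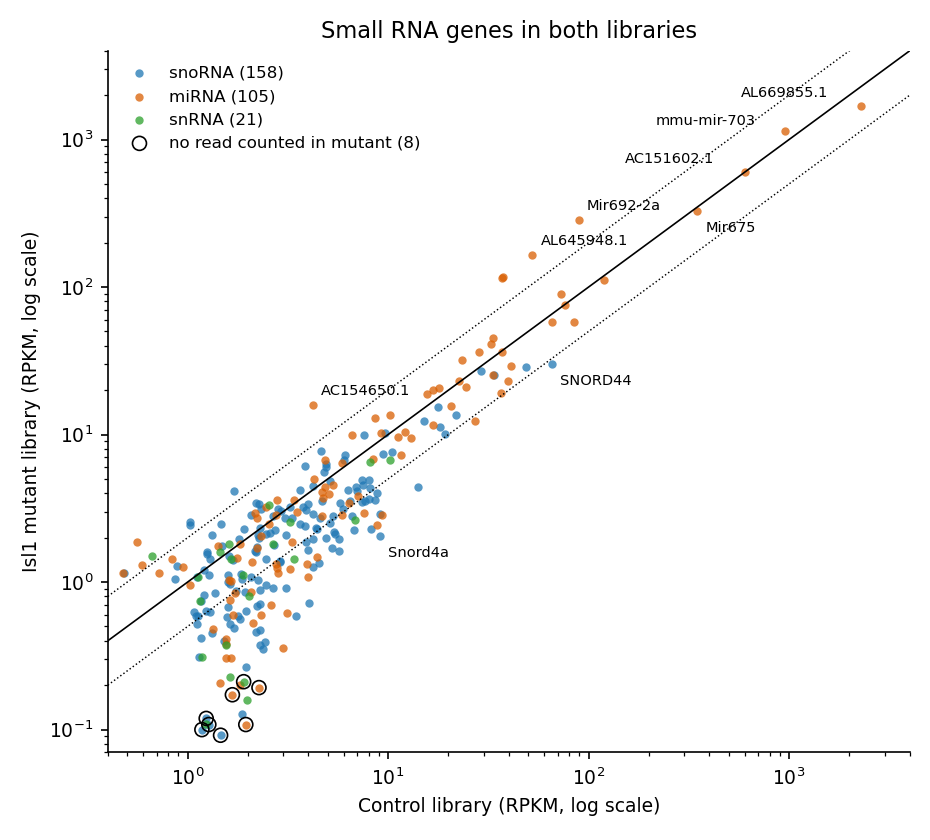
Level of each small RNA gene in the Isl1 mutant library (vertical axis, RPKM, log scale) and in the control library (horizontal axis, RPKM, log scale), coloured by class; the solid line marks equal values and the dotted lines 2-fold differences. The 5 miRNA genes above the upper dotted line at more than 4 RPKM in the control library are the ferritin copies, and the 8 circled genes had no read counted in the mutant library.

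Across the whole table the ratio was lowest where levels were low, and among small RNA genes it did not move steadily with level. Below a mean of 2 RPKM the median log2 ratio was -0.56 for 114 small RNA genes and -0.34 for all 3467 genes. That range includes genes that reached 1 RPKM in 1 library only, whose direction the table's own filter fixed. Between 2 and 5 RPKM it was -0.35 for 86 small RNA genes and -0.24 for 3234 genes. Between 5 and 10 RPKM it was -0.55 for 40 small RNA genes and -0.17 for 2220 genes. Between 10 and 50 RPKM it was -0.21 for 31 small RNA genes and -0.08 for 2934 genes. At 50 RPKM or more it was 0.01 for 13 small RNA genes and 0.05 for 702 genes. In each of the 5 level ranges the median of the small RNA genes lay below that of all genes, with 67.5% of small RNA genes and 67.5% of all genes lower between 5 and 10 RPKM.

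**Figure D2:**
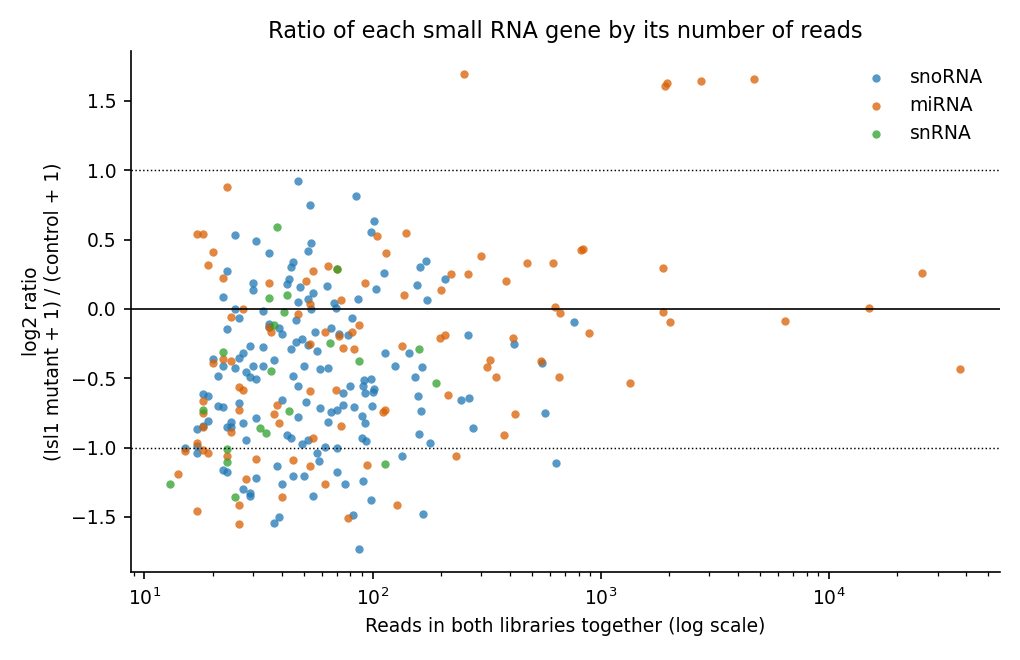
Log2 ratio of each small RNA gene (vertical axis, mutant over control with 1 RPKM added to each) by its reads in both libraries together (horizontal axis, log scale), coloured by class; dotted lines mark 2-fold. Ratios spread widely at low read numbers, mostly below 0, and the 5 points between 1.61 and 1.69 at the top are the ferritin copies.

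A gene was counted as higher or lower when the log2 ratio was at least 1 in size and at least 1 library reached 5 RPKM, which 103 small RNA genes did (49 snoRNA, 51 miRNA and 3 snRNA genes). Of them, 5 were higher, all miRNA genes, where the same rule took 1.00% of the 6372 genes at that level. There were 17 lower, namely 12 snoRNA, 4 miRNA and 1 snRNA genes, where the rule took 2.73% of the genes at that level. The lower count was 3 with 5 RPKM added in place of 1 and 3 with a level of 10 RPKM in place of 5. Each of these 22 had a counting interval that left out equal values. The median at this level was -0.39 for small RNA genes and -0.10 for all genes. Without the 5 RPKM level, 5 were higher and 50 lower, against 1.11% and 4.01% of all genes. The 50 include genes that reached 1 RPKM in the control library alone and so had to be lower.

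The 5 higher genes were the ferritin light chain copies. Mir692-2a (chromosome 4, 125181993 to 125182101, build mm9) was measured at 283 RPKM in the mutant library and 89.3 RPKM in the control library, from 3642 and 1062 reads. Its mutant level was thus 3.17-fold higher (interval 2.96 to 3.40). AL645948.1 on chromosome 11 stood at 165 RPKM in the mutant library and 52.3 RPKM in the control library, 3.16-fold higher (2.89 to 3.46). Mir692-2b on chromosome 13 stood at 118 RPKM in the mutant library and 37.4 RPKM in the control library, and Mir692-1 on chromosome 17 at 115 RPKM in the mutant library and 37.2 RPKM in the control library. AC154650.1, also on chromosome 17, had 15.8 RPKM in the mutant library and 4.204 RPKM in the control library. The 5 log2 ratios lay close together, between 1.61 and 1.69, over mutant levels that ran from 15.8 to 283 RPKM.

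AC151602.1, the copy inside Ftl1 itself, did not share this difference. It stood at 607 RPKM in the mutant library and 605 RPKM in the control library, a ratio of 1.00 (interval 0.973 to 1.04). Ftl1 stood at 712 RPKM in the mutant library and 613 RPKM in the control library, 1.16-fold higher (1.12 to 1.203). The 4 longer genes that hold or overlap the short copies, 3 of them classed as processed pseudogenes, differed in the same direction. Ftl2, which overlaps Mir692-2a on chromosome 4, had 97.0 RPKM in the mutant library and 31.6 RPKM in the control library, 3.06-fold higher. Gm12164, which overlaps AL645948.1, had 58.4 RPKM in the mutant library and 18.8 RPKM in the control library. Gm10116, which holds Mir692-2b, had 14.5 RPKM in the mutant library and 5.30 RPKM in the control library, and Gm15590, which holds AC154650.1, had 3.92 RPKM in the mutant library and 1.504 RPKM in the control library. Reads that fit several of these near-identical copies may have been split between them by the authors' counting, so the level of any 1 copy is uncertain. Leaving out these 5 genes, a choice made after seeing the data, left 0 small RNA genes counted as higher. That count rests on ratios with 1 RPKM added. By the ratio of RPKM alone, some genes at low levels exceeded 2-fold, such as Snord34 below.

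**Figure D3:**
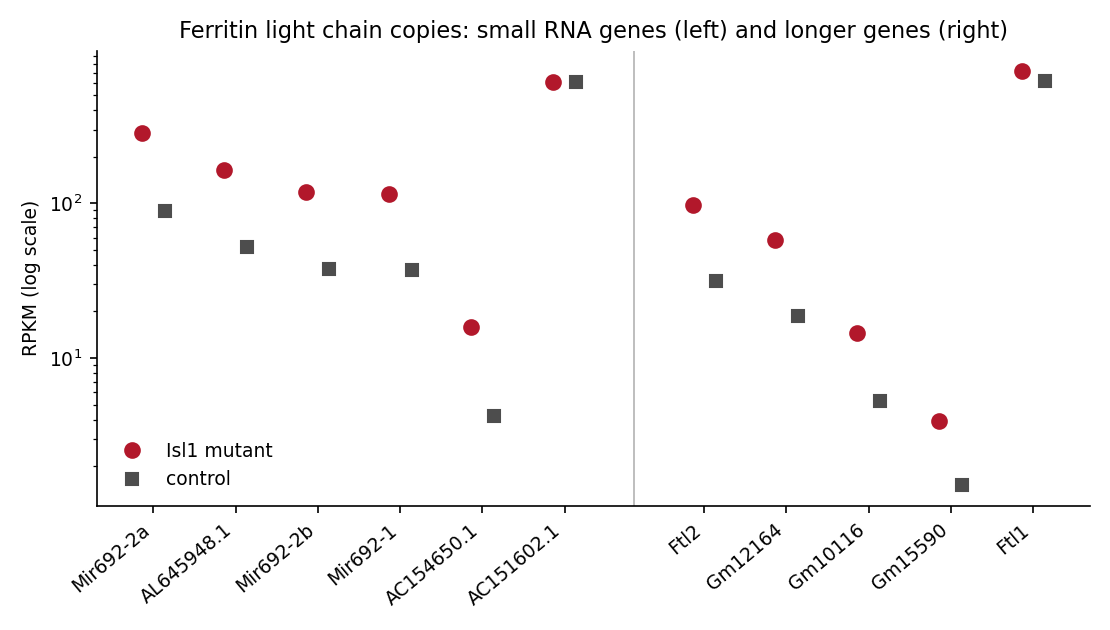
Levels of the ferritin light chain copies (RPKM, log scale) in the Isl1 mutant library (red circles) and the control library (grey squares), with the small RNA genes left of the line and the longer genes right of it. In 5 small RNA genes and in the 4 longer genes that hold or overlap them the mutant value lies well above the control value, while in AC151602.1 (607 and 605 RPKM) and Ftl1 (712 and 613 RPKM) the values are close.

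The other 7 of the 12 highest ratios were below 2-fold. Snord49a, a snoRNA gene in the non-coding 2410006H16Rik, had 7.69 RPKM in the mutant library and 4.60 RPKM in the control library, 1.67-fold higher (interval 1.10 to 2.58). Snord14c, a U14 snoRNA gene in Hspa8, had 6.13 RPKM in the mutant library and 3.85 RPKM in the control library, 1.59-fold higher (1.04 to 2.47). U14 is a box C/D snoRNA that acts in the processing of the small-subunit ribosomal RNA. mmu-mir-2134-4 and mmu-mir-2134-1 had no holding gene, and had 13.1 and 9.93 RPKM in the mutant library against 8.59 and 6.60 RPKM in the control library. Both matched the same 3 other genes in sequence, which makes their reads uncertain. The interval of mmu-mir-2134-1 held equal values (0.999 to 2.29). AC152453.1 in Hsp90b1, a chaperone gene, had 31.8 RPKM in the mutant library and 23.4 RPKM in the control library. AL606704.1 in Igf2bp1, an RNA-binding protein gene, had 45.1 RPKM in the mutant library and 33.3 RPKM in the control library. AC115697.1 had 6.74 RPKM in the mutant library and 4.86 RPKM in the control library, with an interval that held equal values (0.942 to 2.06).

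Of the 12 lowest ratios, 8 belonged to box C/D snoRNA genes, and 6 of these 8 lay inside Rpl23a, Rpl7a or Gnb2l1, genes of ribosomal proteins and of the ribosome-bound protein RACK1. Snord4a in Rpl23a, a ribosomal protein gene, stood lowest, at 2.04 RPKM in the mutant library and 9.08 RPKM in the control library, from 17 and 70 reads. In the mutant it was 4.45-fold lower (interval 2.59 to 8.07). Its neighbour Snord42a had 1.71 RPKM in the mutant library and 5.25 RPKM in the control library, 3.08-fold lower (1.60 to 6.31). Snord96a in Gnb2l1, the gene of RACK1, had 4.41 RPKM in the mutant library and 14.1 RPKM in the control library, 3.19-fold lower (2.23 to 4.64). Snord95 in the same gene had 1.63 RPKM in the mutant library and 5.69 RPKM in the control library. Of the 3 SNORD36 copies in Rpl7a, the 2 lowest had 2.28 and 2.88 RPKM in the mutant library against 8.17 and 9.08 RPKM in the control library. SNORD28 in Snhg1 had 2.24 RPKM in the mutant library and 6.78 RPKM in the control library. SNORD86, which lies in an intron of Mettl22 on the opposite strand, had 1.97 RPKM in the mutant library and 5.72 RPKM in the control library.

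Few miRNA and snRNA genes stood among the lowest. Mir22, whose product is abundant in heart muscle, lies in an exon of the non-coding 2210403K04Rik and had 2.86 RPKM in the mutant library and 9.27 RPKM in the control library. It was 3.24-fold lower (interval 2.15 to 5.001), and its holding gene had 3.42 RPKM in the mutant library and 8.26 RPKM in the control library. Mir1894 in Ppp1r10 had 2.94 RPKM in the mutant library and 7.61 RPKM in the control library, while Ppp1r10 had 11.7 RPKM in the mutant library and 11.02 RPKM in the control library. AC125110.1 in an exon of Rbm27 had 2.44 RPKM in the mutant library and 8.79 RPKM in the control library, with Rbm27 at 1.42 RPKM in the mutant library and 2.32 RPKM in the control library. A U6 gene in Eny2 completed the 12 lowest, at 2.62 RPKM in the mutant library and 6.85 RPKM in the control library.

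Apart from the ferritin copies, the highest levels belonged to miRNA genes that lie in exons or partly in exons of longer genes, and their ratios were within 1.5-fold. AL669855.1 in Actg1 had 1697 RPKM in the mutant library and 2294 RPKM in the control library, 1.35-fold lower (interval 1.32 to 1.38), where Actg1 had 1196 RPKM in the mutant library and 1519 RPKM in the control library. The gene mmu-mir-703 in Eef1a1, a translation elongation factor gene, had 1139 RPKM in the mutant library and 950 RPKM in the control library, 1.198-fold higher (1.17 to 1.23), where Eef1a1 had 3206 RPKM in the mutant library and 3155 RPKM in the control library. Mir675 lies in an exon of H19, the imprinted non-coding RNA that is its known precursor, and had 327 RPKM in the mutant library and 347 RPKM in the control library. H19 itself had 275 RPKM in the mutant library and 266 RPKM in the control library. Mir704 in Pdia4 had 112 RPKM in the mutant library and 120.0 RPKM in the control library, and Mir686 in Psmb5 had 75.1 RPKM in the mutant library and 76.4 RPKM in the control library. AL845466.1, which lies in Serf2 on the opposite strand, had 89.6 RPKM in the mutant library and 72.9 RPKM in the control library. Serf2 itself stood lower, at 27.9 RPKM in the mutant library and 25.3 RPKM in the control library. AL603664.2 in Ddx5, an RNA helicase gene that also acts in miRNA processing, had 58.3 RPKM in the mutant library and 84.9 RPKM in the control library, 1.46-fold lower (1.31 to 1.62), where Ddx5 had 39.1 RPKM in the mutant library and 51.9 RPKM in the control library.

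Most small RNA genes lay inside a longer gene of the same table. By coordinates 240 of the 284 were wholly held by a gene of 400 bases or more, in 172 such genes, and 207 of the 240 had the same strand as their holder. The sources used here do not state that the libraries kept the strand, so reads of either strand may be counted for either gene. By the exons of GENCODE M21, 57 lay wholly in an exon of the holder, 24 partly in one and 136 in an intron, and 23 could not be matched. Exons of transcripts annotated as retaining an intron were left out here. By sequence, 127 of 258 small RNA genes matched a transcript of their holder. Some genes counted as intronic, such as SNORD28 in Snhg1, are among them. Levels followed the position in exon or intron. Intronic small RNA genes stood at a median of 6.87% of their holder's RPKM in the mutant library and 11.9% in the control library, and exonic ones at 98.3% in the mutant library and 118% in the control library. The median log2 ratio was -0.53 for intronic genes, with a median difference from the holder of -0.38, and -0.09 for exonic genes, with a median difference of -0.06. Intronic genes had median levels of 1.84 RPKM in the mutant library and 2.44 RPKM in the control library. Those that reached 1 RPKM in 1 library only had a direction fixed by the table's filter. Medians by position without them were not computed.

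Ratios of small RNA genes and holders were alike where reads were many. Over 41 held genes with 200 reads or more in both libraries together (31 miRNA and 10 snoRNA genes, 30 of them in or partly in exons), 38 lay within 0.5 of the holder's log2 ratio and the median difference was 0.01. Pearson's r was 0.87 and Spearman's rho 0.82, as a description across genes that share the same 2 libraries, and in exonic cases the same reads. Without the 3 ferritin copies among them, r was 0.80 and rho 0.80 (n = 38), and without the 6 Gas5 snoRNA genes as well r was 0.73 (n = 32). Over the 199 held genes with fewer reads r was 0.27. The 3 genes that lay farther than 0.5 from their holder were AC154650.1 above Gm15590, and Snora64 and AL772376.2 below theirs. Snora64 in Rps2, a ribosomal protein gene, had 12.4 RPKM in the mutant library and 15.02 RPKM in the control library, while Rps2 had 466 RPKM in the mutant library and 347 RPKM in the control library. AL772376.2 in Mcart1 matched 488 other genes in sequence, which makes its reads uncertain.

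**Figure D4:**
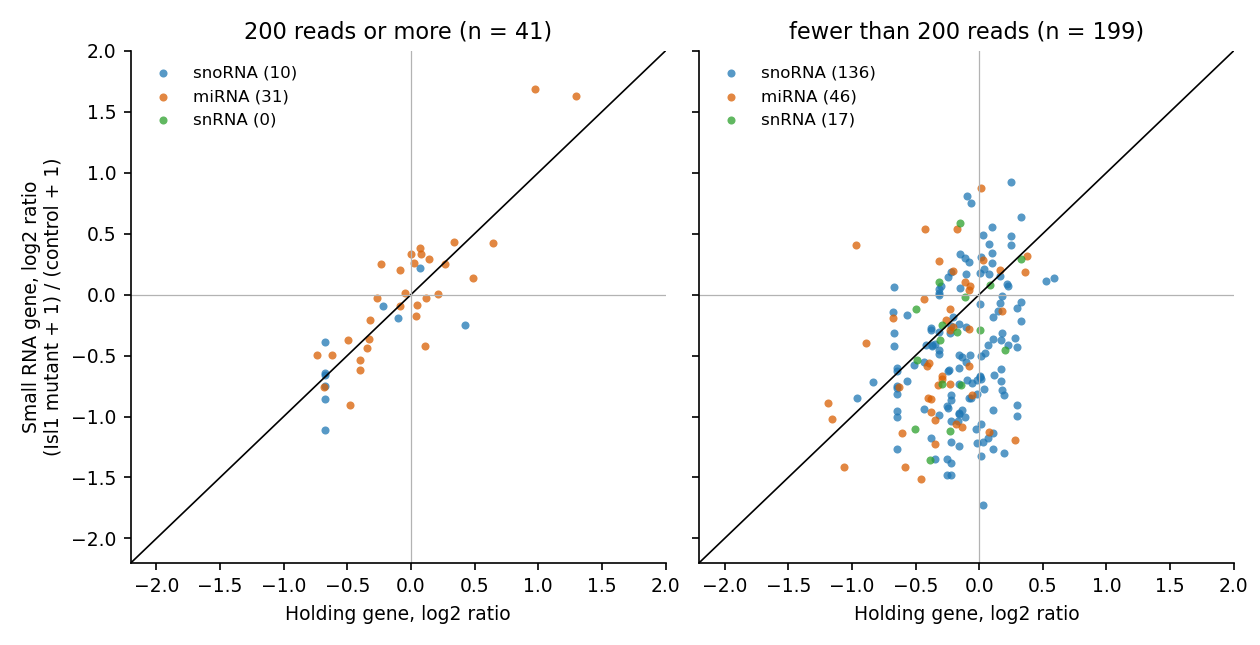
Log2 ratio of each held small RNA gene (vertical axis) against that of the longer gene that holds it (horizontal axis), both mutant over control with 1 RPKM added, for genes with 200 reads or more (left, 41 genes) and fewer (right, 199 genes); the line marks equal ratios. On the left 38 of 41 genes lie within 0.5 of the line, and on the right the points spread widely and mostly below it.

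For snoRNA and miRNA genes, the difference from the holder went with position more than with class. Over 146 held snoRNA genes the median log2 ratio was -0.50, against -0.11 for their holders, and the median of the differences was -0.34. Over 77 held miRNA genes it was -0.21, against -0.23 for their holders, with a median difference of -0.06. Within introns, however, the median difference was -0.39 for 109 snoRNA genes and -0.39 for 16 miRNA genes. Within exons it was -0.08 for 17 snoRNA genes and -0.02 for 37 miRNA genes. The snRNA genes did not share the intronic difference, with -0.07 for 11 intronic and -0.002 for 3 exonic ones. The intron medians include genes whose direction the table's own filter fixed. Of the small RNA genes that reached 5 RPKM, 57 of 94 held ones lay below their holder's ratio and 37 above it, with a median difference of -0.10. Values also differed with the kind of holder. The 35 snoRNA genes in 21 ribosomal protein genes had a median of -0.68, against 0.07 for their holders, and 26 of the 35 were lower. Their reads together were 1046 in the mutant library and 1515 in the control library, 1.57-fold lower (interval 1.45 to 1.70). Of these 35, 11 reached 5 RPKM. The 74 snoRNA genes in other protein-coding genes had a median of -0.49, against -0.15 for their holders, and 60 of the 74 were lower. The 37 snoRNA genes in non-coding genes had a median of -0.42, against -0.34 for their holders. These medians and the pooled reads may include genes that reached 1 RPKM in 1 library only, whose direction the table's filter fixed.

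There were 15 genes that held 3 or more snoRNA genes, with 64 in all, and their reads were pooled per holder. Gas5, a spliced non-coding RNA known for its snoRNA-bearing introns, held 9. SNORD44 had 29.9 RPKM in the mutant library and 65.7 RPKM in the control library, 2.20-fold lower (interval 1.86 to 2.60). SNORD78 had 28.7 RPKM in the mutant library and 48.9 RPKM in the control library, and SNORD24 had 25.5 RPKM in the mutant library and 33.7 RPKM in the control library. The other 6 lay between 7.39 and 13.5 RPKM in the mutant library and between 9.44 and 21.9 RPKM in the control library, and 8 of the 9 were lower in the mutant library, Snord47 being the exception with 10.2 RPKM in the mutant library and 9.68 RPKM in the control library. The pooled ratio was 0.620 (0.576 to 0.668) and that of Gas5 itself 0.617 (0.586 to 0.648). All 9 matched a transcript of Gas5 in sequence, so the same reads may count for both, which was not tested. Without SNORD44 the pooled ratio was 0.671 (0.618 to 0.729).

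Snhg1, the other large non-coding snoRNA host, held 8, and all 8 were lower in the mutant library. They lay between 2.24 and 4.57 RPKM in the mutant library and between 5.15 and 8.09 RPKM in the control library. The pooled ratio was 0.505 (interval 0.431 to 0.590), beside 0.584 (0.539 to 0.634) for Snhg1. Taf1d, the gene of an RNA polymerase I factor, held 6 with a pooled ratio of 0.832 (0.664 to 1.04) beside 0.756 for Taf1d. Each snoRNA gene of Snhg1 and Taf1d also matched a transcript of its holder in sequence, so reads may be shared there too. In Nop56, which encodes a core protein of box C/D snoRNPs and itself held 4 snoRNA genes, the pooled ratio was 0.888 (0.747 to 1.06) beside 0.931. For Gas5, Taf1d, Nop56, 2410006H16Rik (1.17 beside 1.28) and 1110038B12Rik (0.771 beside 0.789) the holder's ratio lay inside the interval of the pooled snoRNA genes, as did that of Snhg1.

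In 7 holders the snoRNA genes were lower than the holder beyond counting error. Each snoRNA gene of Gnb2l1 and Rps12, and some of Eif4a2, Eif4a1 and Rpl7a, also matched a transcript of the holder in sequence. Reads may therefore be shared in these holders too, which was not tested. Those of Rpl23a had no such match. Rpl7a, a ribosomal protein gene, held 4, with 72 reads in the mutant library and 210 in the control library, a ratio of 0.317 (interval 0.239 to 0.416) beside 0.858 for Rpl7a. Gnb2l1 held 3, with a ratio of 0.323 (0.241 to 0.427) beside 0.836. Rpl23a held 3, with a ratio of 0.392 (0.276 to 0.550) beside 1.02, although 1 of them, Snord42b, had 2.47 RPKM in the mutant library and 1.47 RPKM in the control library. Eif4a2, the gene of a translation initiation helicase, held 5, all lower, from 1.34 to 4.94 RPKM in the mutant library and from 4.54 to 8.79 RPKM in the control library. Their pooled ratio was 0.511 (0.435 to 0.599) beside 0.894 for Eif4a2. Rpl4 gave 0.585 (0.469 to 0.729) beside 1.01, although 1 of its 4, the SNORD18 gene at 64023678 on chromosome 9, had 3.12 RPKM in the mutant library and 2.34 RPKM in the control library. Rps12 gave 0.594 (0.423 to 0.828) beside 1.25. Eif4a1 held 3, with 33 reads in the mutant library and 67 in the control library, a ratio of 0.456 (0.291 to 0.701) beside 0.765. With 3 mutant reads set for SNORA48, which had none, the ratio was 0.497 (0.322 to 0.756). Without SNORA48, a choice made after seeing the data, it was 0.694 (0.428 to 1.11), an interval that holds the ratio of Eif4a1.

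The opposite order appeared in 2 holders. Rpl13a, a further ribosomal protein gene, held Snord33, Snord34 and Snord35a, each higher in the mutant library. Snord34 had 4.14 RPKM in the mutant library and 1.71 RPKM in the control library, 2.42-fold higher (interval 1.25 to 4.996), from 34 and 13 reads. The pooled ratio was 1.81 (1.26 to 2.64) beside 1.19 for Rpl13a. Hspa8, the gene of a constitutive heat shock chaperone, held 3 U14 genes, Snord14c, Snord14d and Snord14e, which had 6.13, 9.88 and 6.04 RPKM in the mutant library against 3.85, 7.59 and 4.90 RPKM in the control library. Their pooled ratio was 1.35 (1.09 to 1.67), beside 1.07 for Hspa8.

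**Figure D5:**
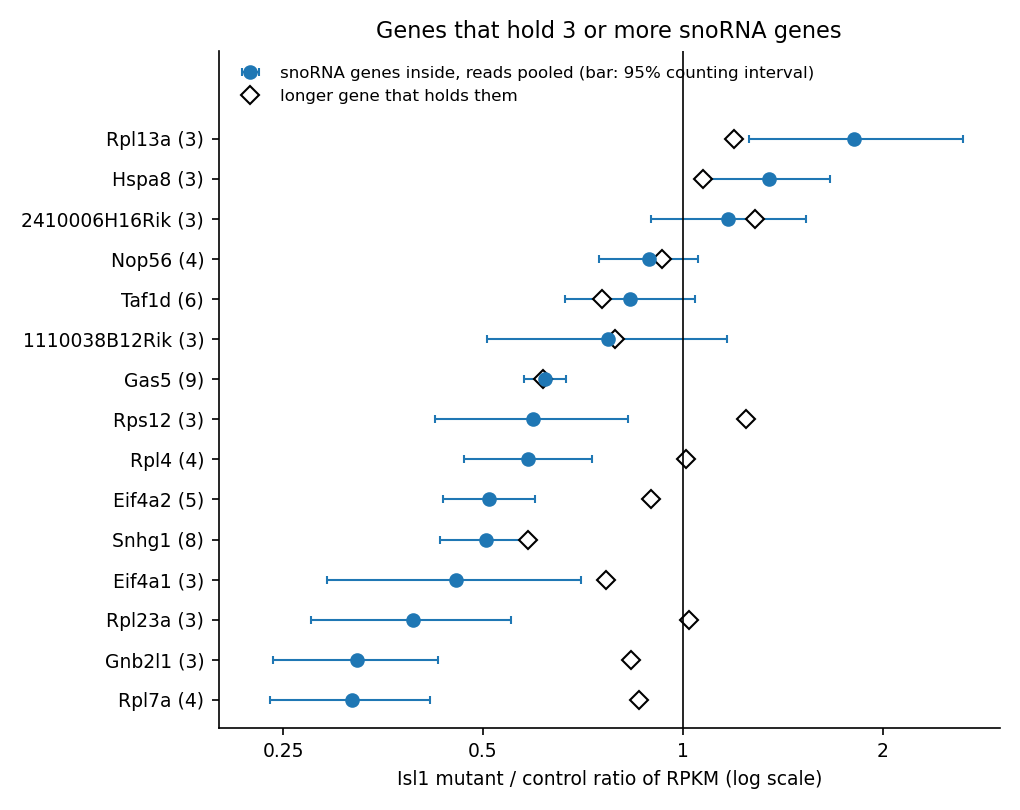
Ratio of Isl1 mutant to control (log scale) for the 15 genes that hold 3 or more snoRNA genes: filled circles are the pooled reads of the snoRNA genes with 95% counting intervals, diamonds are the holding gene, and the number held stands in brackets. Circle and diamond coincide in Gas5 (0.620 and 0.617) and stand apart in Rpl7a (0.317 and 0.858). The same reads may count for both marks in Gas5 and, for some snoRNA genes, in Rpl7a.

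Neighbouring genes with the same sequence give a case where reads may have been traded between copies. Snora73a and Snora73b, both H/ACA snoRNA genes of the U17 kind that acts in ribosomal RNA processing, lie in the non-coding Gm17300 and match each other in sequence. Snora73a had 34 reads in the mutant library and 65 in the control library, while Snora73b had 62 in the mutant library and 23 in the control library. Both copies summed to 96 reads in the mutant library and 88 in the control library, a ratio of 1.01 (interval 0.748 to 1.36). Across the 258 small RNA genes with a GENCODE M21 sequence, 72 matched at least 1 other gene at 95% identity over 90% of their length, and 10 matched 5 or more, of which 9 were miRNA genes.

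The 21 snRNA genes comprised 14 U6, 4 U1, and 1 each of U2, U4 and U7. Their levels were low, from 0.159 to 6.70 RPKM for U6 in the mutant library and from 1.16 to 10.2 RPKM in the control library. A U6 gene in Myh9, a non-muscle myosin gene, stood highest with 6.70 RPKM in the mutant library and 10.2 RPKM in the control library, and a U6 gene in an exon of Odf2 had 6.48 RPKM in the mutant library and 8.14 RPKM in the control library. U6 was lower in 11 of 14 genes and U1 in 3 of 4. Only 12 of the 21 snRNA genes reached 1 RPKM in both libraries, and 9 of these were lower. The rest, the U4 gene among them, entered through 1 library, so the table's filter fixed their direction. U2 had 1.82 RPKM in the mutant library and 2.66 RPKM in the control library, U4 had 0.809 RPKM in the mutant library and 2.02 RPKM in the control library, and U7 had 1.42 RPKM in the mutant library and 3.39 RPKM in the control library. The 1 snRNA gene counted as lower was the U6 gene in Eny2, 2.62-fold lower (interval 1.73 to 4.06), where Eny2 had 10.3 RPKM in the mutant library and 12.2 RPKM in the control library.

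In 8 small RNA genes no read was counted in the mutant library, against none in the control library, and the table holds a fill value there. They were AC107641.1, Mir1b, Mir208b, SNORA48, SNORA26, Snord67, SNORA17 and a U6 gene, with 13 to 26 reads in the control library. Against a floor of 3 mutant reads, Mir1b was at least 9.37-fold lower and the U6 gene at least 4.68-fold lower. Mir208b, a heart miRNA gene in an intron of the slow myosin gene Myh7, had 14 control reads and was at least 5.04-fold lower, while Myh7 had 654 RPKM in the mutant library and 538 RPKM in the control library. These genes stood at 1.18 to 2.27 RPKM in the control library, near the lowest level the table keeps. All 8 entered through the control library alone, so the table's filter fixed their direction. By that filter 70 small RNA genes entered through the control library alone and 10 through the mutant library alone. The number of genes without a mutant read over the whole table was not computed.

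Of the miRNA genes listed for particular cell types, 5 were measured. Mir145 and Mir143, which are neighbours known from smooth muscle, had 9.66 and 4.07 RPKM in the mutant library against 11.2 and 4.69 RPKM in the control library. Mir21, in Vmp1, had 3.60 RPKM in the mutant library and 3.39 RPKM in the control library. Mir150, known from lymphocytes, had 0.525 RPKM in the mutant library and 2.13 RPKM in the control library, from 4 and 15 reads. It reached 1 RPKM in the control library alone, so the table's filter fixed its direction. Mir208b is given above, and the other listed miRNA genes were not analysed here.

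None of the listed genes that process or carry small RNAs was counted as higher or lower. Of the miRNA processing list, 15 of 23 were measured and 14 had a lower value, beside 67.2% of all genes of the table. The median log2 ratio was -0.40, beside -0.18 for all genes. Tnrc6c, Eif2c1 and Eif2c3 reached 1 RPKM in the control library alone, so the table's filter fixed their direction. On the log2(RPKM + 1) scale, which holds back low genes, the largest differences were those of Tnrc6b, which encodes a GW182 protein of the silencing complex, with 2.49 RPKM in the mutant library and 4.41 RPKM in the control library, and of Eif2c3, an Argonaute gene, with 0.629 RPKM in the mutant library and 1.45 RPKM in the control library. Of the box C/D list, 11 of 12 were measured with a median of -0.10. Nhp2l1, the gene of a core protein, had 19.3 RPKM in the mutant library and 24.9 RPKM in the control library, and Fbl, the gene of the methyltransferase fibrillarin, had 23.7 RPKM in the mutant library and 28.5 RPKM in the control library. Of the box H/ACA list, 8 of 9 were measured with a median of -0.08. Dkc1, the gene of the pseudouridine synthase dyskerin, had 16.8 RPKM in the mutant library and 27.0 RPKM in the control library, and Wrap53, which encodes a Cajal body protein, had 6.803 RPKM in the mutant library and 4.66 RPKM in the control library. Of the small nuclear RNP list, 22 of 25 were measured, 15 of them with a higher value, and the median was 0.09. Snrpf and Snrpg, genes of Sm core proteins, had 1.37 and 3.85 RPKM in the mutant library against 0.668 and 2.58 RPKM in the control library. Of the end-processing list, 19 of 22 were measured with a median of -0.13. Dis3, an exosome nuclease gene, had 0.495 RPKM in the mutant library and 1.47 RPKM in the control library, and Papd5, a non-canonical poly(A) polymerase gene, had 0.897 RPKM in the mutant library and 2.04 RPKM in the control library. Of the non-coding host list, 9 of 24 were measured with a median of -0.26. Snhg11 had 0.311 RPKM in the mutant library and 1.29 RPKM in the control library, and Gas5 had 21.4 RPKM in the mutant library and 34.7 RPKM in the control library. Dis3, Papd5 and Snhg11 reached 1 RPKM in the control library alone and Snrpf in the mutant library alone, so their direction was fixed as well.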

How the data were processed

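RNA was measured in 2 libraries, 1 Isl1 mutant and 1 control. Per the submitters' processing notes, Trim Galore, FastQC, TopHat2, Bowtie2 and the build mm9 were used, with no versions or roles given, and no source used here names the counting tool. The table deposited by the authors gives 1 RPKM value per gene and library, with coordinates and constitutive exons, per the file headers. The header does not name the unit, which was inferred from the values: multiplied by gene length, they came to whole reads (tolerance 0.01) for 276 small RNA genes of the mutant and 284 of the control. Reads were recovered for 12439 of all genes (99.1%, tolerance 0.0001). The authors' deposited log2 fold change and their deposited signed fold, a score, were not used.

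The main measure was log2((mutant RPKM + 1)/(control RPKM + 1)), which understates the change of low genes; folds are ratios of RPKM without the added 1. Genes count as higher or lower at 2-fold with 5 RPKM in at least 1 library. The holder is the shortest gene of 400 bases or more that wholly contains the small RNA gene. Each fold has a 95% Clopper-Pearson interval, conditional on the reads of both libraries. A fold against a library with no read uses a floor of 3 reads. Sequences and exon positions came from GENCODE release M 21 (GRCm38), matched by Ensembl identifier or unique symbol, with no coordinates carried over. For exon positions, transcripts annotated as retaining an intron were left out. Matches were found with BLAST 2.17.0; the rest used Python 3.11.15, pandas 2.3.3, NumPy 2.4.6, SciPy 1.17.1 and Biopython 1.88. The scripts were tested on simulated data.

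Named genes are the 12 highest and 12 lowest ratios at 5 RPKM, the 12 highest levels, the snRNA genes, listed miRNAs, genes of holders with 3 or more, genes with no mutant read, those nearest the length limit, their holders, and of each list those with the largest changes; Snora73a, Snora73b, Snora64, AL772376.2 and the longer ferritin genes were added after their values were seen. Of the genes this rule names, 1 is not reported here. Members and lists were chosen with earlier results of these data known. Alternatives were other pseudocounts, scalings, floors, thresholds and holder rules.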

Additional observations from a re-analysis of the deposited data

How the results depend on the processing

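The count of small RNA genes at least 2-fold higher was 5 under each planned pseudocount, floor and scaling and 6 at 1.5-fold. It was 0 without the 5 ferritin copies and 1 without every gene that matches another in sequence, the 1 left being Mir692-2a, for which GENCODE M21 gave no sequence by identifier; both were chosen after seeing the data. The count of lower genes depended more on the settings: 17 as reported, 3 with a pseudocount of 5, 3 with a floor of 10 RPKM, 50 with no floor, 41 at 1.5-fold and 1 at 3-fold. The median log2 ratio at 5 RPKM was -0.39 and was -0.18 with a floor of 10 RPKM; other settings kept it between -0.49 and -0.30. The median difference from the holder at 5 RPKM was -0.10, and -0.15 for the 28 genes outside the holder's constitutive exons. With no floor it was -0.34 for 110 genes outside those exons, a pair of choices made after seeing the data. These 110 may include genes whose direction the table's filter fixed, and the cause was not tested. Centring the mutant library, a shift of -0.07, changed the sign in 3 of 117 named genes, and no called gene changed direction. No paired analysis was possible because each genotype has 1 library, and none could be left out. Most genes had under 50 reads, which limits what can be told for a single snoRNA gene.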
